A study of Mus musculus with 6 samples.

Results

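Vamp8 and 9 related genes of the SNARE family were followed in HL-1 cells, an immortal mouse atrial cardiomyocyte line. The list was given as Vamp1, Vamp2, Vamp3, Vamp4, Vamp5, Vamp7, Vamp8, Snap23, Stx3 and Stx4a, and it was drawn up with the difference in Vamp8 between the groups already known. Of these 10 genes, 9 were found among the 38087 gene IDs of the files, and all 9 passed the filter on low counts. Vamp7 was not analysed here. Cells received 100 nM of an siRNA that targets the circular RNA Circ-INSR, made from the insulin receptor locus (Circ-INSR siRNA, 3 libraries), or a scrambled siRNA (control siRNA, 3 libraries), and all libraries came from this 1 line. Poly(A)-selected RNA was sequenced, so the circular RNA itself was not measured, and the labels do not say whether the 3 libraries of a group came from separate cultures. The p-values below therefore measure the spread between these libraries, which may be technical.

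SNARE proteins drive the fusion of membranes. A vesicle SNARE with a conserved arginine (R-SNARE), such as a VAMP, zips into a helical bundle with Q-SNAREs on the target membrane, such as a syntaxin and a SNAP-25-like protein, and the bundle is afterwards taken apart by the ATPase NSF with its SNAP adaptors. In muscle and fat cells VAMP2, syntaxin 4 and SNAP23 are known for the delivery of the glucose transporter GLUT4 to the cell surface under insulin. VAMP8, also called endobrevin, is known for fusion at late endosomes and lysosomes, for fusion of autophagosomes with lysosomes together with syntaxin 17 and SNAP29, and for secretion from granules in platelets, mast cells and exocrine glands.

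The genes lie on several chromosomes of the mouse build GRCm38 (mm10), and 2 of them are neighbours. Vamp8 (ENSMUSG00000050732) spans chromosome 6 from 72385223 to 72390703 on the minus strand. Vamp5 (ENSMUSG00000073002) lies on the same strand from 72368794 to 72380468, with 4754 bases between them. Vamp1 is on chromosome 6 too, far away, from 125215551 to 125245964 on the plus strand. Their promoters, here the 250 bases before and 50 bases after the annotated start, are shown because the genes are adjacent and both were lower after Circ-INSR siRNA; they come from RefSeq on GRCm38.p6, read 5′ to 3′ on the minus strand, with CpG dinucleotides in capitals.
Vamp8, chr6:72390618-72390917: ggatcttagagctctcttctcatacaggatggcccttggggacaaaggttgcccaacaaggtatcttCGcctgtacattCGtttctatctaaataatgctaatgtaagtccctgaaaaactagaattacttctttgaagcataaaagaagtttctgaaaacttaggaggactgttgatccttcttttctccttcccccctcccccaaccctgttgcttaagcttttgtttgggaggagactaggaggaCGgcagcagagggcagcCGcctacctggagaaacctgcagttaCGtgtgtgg
Vamp5, chr6:72380419-72380718: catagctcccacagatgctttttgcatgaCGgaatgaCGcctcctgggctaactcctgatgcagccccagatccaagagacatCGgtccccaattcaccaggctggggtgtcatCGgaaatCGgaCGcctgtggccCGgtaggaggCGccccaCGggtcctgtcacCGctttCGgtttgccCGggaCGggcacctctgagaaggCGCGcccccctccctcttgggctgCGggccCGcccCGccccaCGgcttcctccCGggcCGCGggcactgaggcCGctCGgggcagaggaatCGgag

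The neighbouring promoters differed in base composition. The Vamp8 promoter held 5 CpG dinucleotides at 46.7% G and C, and the Vamp5 promoter 25 at 67.3%, where the median of 32851 mouse promoters of the same table was 7 CpG at 52.7%. The table holds promoters of 7 of the 10 genes (Vamp1, Vamp4, Vamp5, Vamp8, Snap23, Stx3 and Stx4a), and 6 of these genes had more CpG than the median promoter, Vamp8 being the exception. Common promoter words were searched on both strands, overlapping matches included. The E-box CACGTG stands in 7.15% of all promoters of the table, the CCAAT box, spelled CCAAT, in 37.4%, and the GC box GGGCGG in 35.7%. The AP-1 site TGANTCA stands in 7.81%, the cAMP response element TGACGTCA in 1.79% and the TATA box TATAAA in 13.6%. The Vamp8 promoter held 0 of these 6 words. The Vamp5 promoter held the CCAAT box 1 time and the GC box 2 times, and the Stx4a promoter held them 1 and 3 times.

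Total counts ran from 68468620 to 77037474 in Circ-INSR siRNA libraries and from 60024750 to 62523602 in control siRNA libraries. By total counts alone, 3 counts correspond to 0.0389 to 0.0438 CPM in the Circ-INSR siRNA and 0.0480 to 0.04998 CPM in the control siRNA libraries. The CPM of genes are counts scaled to a common library size with TMM factors (trimmed mean of M-values). All 10 markers fixed for atrial cardiomyocytes were detected, among them Myh6, the alpha myosin heavy chain, at 2204 CPM after Circ-INSR siRNA and 1563 CPM after control siRNA, Tnnt2, cardiac troponin T, at 1216 CPM after Circ-INSR siRNA and 2021 CPM after control siRNA, and Sln, sarcolipin, at 0.892 CPM after Circ-INSR siRNA and 0.908 CPM after control siRNA. Epithelial markers, among cells where VAMP8 is known to be abundant, summed to 75.1 to 81.5 CPM after Circ-INSR siRNA and 158.6 to 176.9 CPM after control siRNA. Most of this sum was Krt18, at 62.5 CPM after Circ-INSR siRNA and 143.2 CPM after control siRNA. In the same order Krt8 was at 2.33 and 10.5 CPM, and Cldn4 at 0.127 and 0.503 CPM. Epcam was at 12.6 and 13.8 CPM, and Cdh1 at 0.631 and 0.534 CPM. Haematopoietic markers summed to 4.06 to 4.55 CPM after Circ-INSR siRNA and 6.64 to 7.83 CPM after control siRNA, and of those 6 genes Adgre1, a macrophage marker, was at 0 in every library. Of the epithelial list 3 of 5 genes fell and 0 rose, and of the 3 haematopoietic genes tested 2 fell and 0 rose, where 57% of all genes tested were past an edgeR adjusted p of 0.05. Other lists differed in other directions. Endothelial markers summed to 82.7 to 86.6 CPM after Circ-INSR siRNA and 27.3 to 30.6 CPM after control siRNA (2 of 4 rose, 0 fell). Smooth muscle markers summed to 6424 to 6657 CPM after Circ-INSR siRNA and 3990 to 4113 CPM after control siRNA (4 of 4 rose). Fibroblast markers summed to 115.4 to 130.5 CPM after Circ-INSR siRNA and 162.8 to 181.7 CPM after control siRNA (1 of 4 rose, 1 fell). Of the atrial markers 3 rose and 5 fell, and of the neuronal markers tested 0 of 2 passed. The endothelial, smooth muscle, fibroblast and haematopoietic sums rested mostly on Kdr, Acta2, Col1a1 and Cd68. The part of these lists in the values of Vamp8 was not tested.

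Vamp8 was the member with the largest difference. It had 24.5, 24.0 and 24.2 CPM after Circ-INSR siRNA, against 81.5, 76.5 and 78.7 CPM after control siRNA. The groups lay far apart, and the libraries within each were close together. The means were 24.3 ± 0.244 CPM after Circ-INSR siRNA and 78.9 ± 2.49 CPM after control siRNA (SD, n = 3 each), so the level with Circ-INSR siRNA was 30.7% of that in control siRNA cells, a log2 fold change of -1.70 (SE 0.05). Of 16666 genes tested, 236 (1.42%) had a lower log2 fold change. This difference is what the list was built on, so it is given as a description and carries no test. Fewer cells with the mRNA and less mRNA in each cell cannot be told apart in such bulk libraries.

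**Figure D1:**
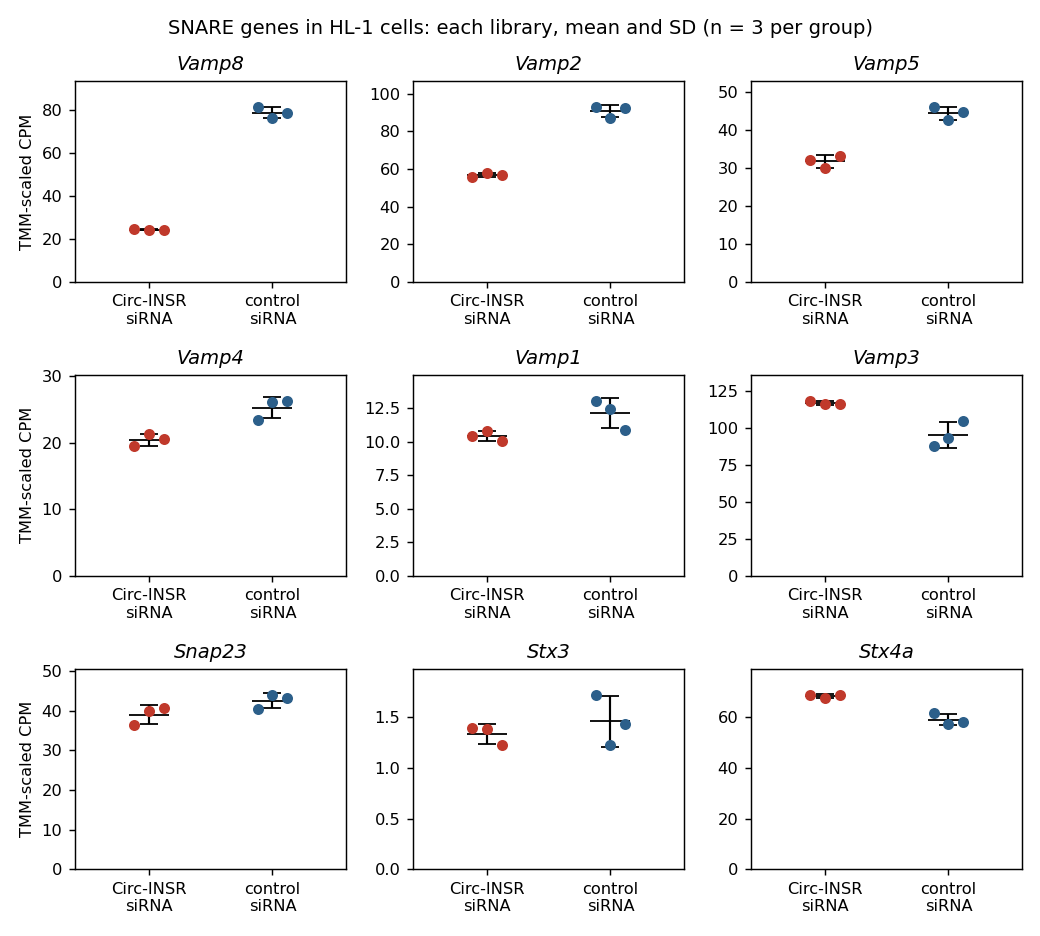
TMM-scaled CPM of the 9 genes measured, 1 point per library, with the mean and SD of 3 libraries; Circ-INSR siRNA libraries are on the left of each panel and control siRNA libraries on the right, and each vertical axis starts at 0. Vamp8 shows the widest gap, at 24.3 against 78.9 CPM, while the points of Snap23 and Stx3 overlap.

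Among the other vesicle SNAREs, Vamp2 and Vamp5 were lower too, by less. Vamp2, or synaptobrevin 2, a SNARE of synaptic vesicles and GLUT4 vesicles (chromosome 11, 69088490 to 69092384, plus strand), had 55.9, 57.7 and 56.6 CPM after Circ-INSR siRNA, against 92.9, 87.2 and 92.2 CPM after control siRNA. The groups did not overlap, and the log2 fold change was -0.68 (SE 0.04). Vamp5, called myobrevin for its rise during muscle cell differentiation, had 32.2, 29.9 and 33.3 CPM after Circ-INSR siRNA and 46.0, 42.7 and 44.7 CPM after control siRNA. These groups were also separate, and the log2 fold change was -0.48 (SE 0.05).

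Vamp4 and Vamp1 differed little. Vamp4, a SNARE of traffic between endosomes and the trans-Golgi network (chromosome 1, 162570515 to 162599084, plus strand), had 19.5, 21.3 and 20.5 CPM with Circ-INSR siRNA, against 23.4, 26.2 and 26.3 CPM with control siRNA. Its groups were separate by a small margin, with a log2 fold change of -0.31 (SE 0.06). Vamp1, or synaptobrevin 1, a close relative of Vamp2 known from nerve terminals, had 10.5, 10.8 and 10.1 CPM with Circ-INSR siRNA and 13.0, 12.5 and 10.9 CPM with control siRNA. Here control siRNA replicate 3 lay 0.23 below the mean of the other controls on the log2 CPM scale and nearly touched the highest Circ-INSR siRNA library. The log2 fold change was -0.22 (SE 0.08), and -0.28 without that control library.

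Vamp3 differed in the other direction from the other measured Vamp genes. Vamp3, or cellubrevin, the R-SNARE of recycling endosomes in most cell types and a close relative of Vamp2 (chromosome 4, 151047300 to 151057963, minus strand), had 118.3, 116.0 and 116.1 CPM after Circ-INSR siRNA, against 87.7, 93.4 and 104.7 CPM after control siRNA. All Circ-INSR siRNA libraries were above all controls, and control replicate 3 lay closest to them. The log2 fold change was 0.29 (SE 0.06), and 0.37 without control siRNA replicate 3.

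The listed Q-SNAREs Stx4a, Snap23 and Stx3 differed by 0.21 or less on the log2 scale. Stx4a, syntaxin 4 (chromosome 7, 127824294 to 127849019, plus strand), had 68.8, 67.6 and 68.6 CPM after Circ-INSR siRNA, against 61.6, 57.4 and 58.1 CPM after control siRNA, a log2 fold change of 0.21 (SE 0.04) with separate groups. Snap23, the broadly expressed relative of the neuronal SNAP-25 (chromosome 2, 120567671 to 120601255, plus strand), had 36.3, 40.0 and 40.8 CPM with Circ-INSR siRNA and 40.4, 44.0 and 43.3 CPM with control siRNA. Those groups overlapped, and the log2 fold change was -0.13 (SE 0.06). Stx3, syntaxin 3, known for fusion at the apical surface of epithelial cells (chromosome 19, 11775118 to 11819403, minus strand), was the scarcest of the measured members, with 1.40, 1.38 and 1.22 CPM in Circ-INSR siRNA libraries, against 1.72, 1.22 and 1.43 CPM in control siRNA libraries. It rested on 77 to 105 counts per library, its groups overlapped, and the log2 fold change was -0.13 (SE 0.17).

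**Figure D2:**
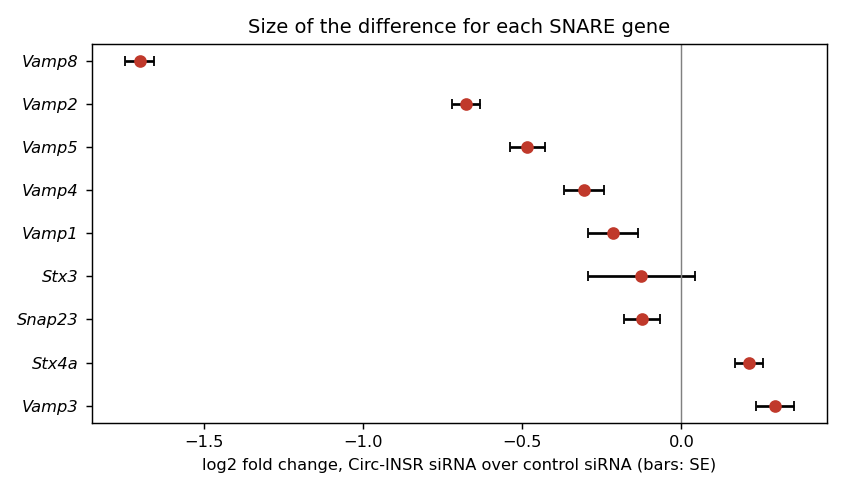
Log2 fold change of each of the 9 genes, Circ-INSR siRNA over control siRNA, on the horizontal axis, with its standard error as bars. Vamp8 stands at -1.70, Vamp2 at -0.68 and Vamp5 at -0.48, and only Stx4a and Vamp3 lie to the right of 0.

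Counted by the edgeR quasi-likelihood test with Benjamini-Hochberg adjustment over all genes, 7 of the 9 genes were past an adjusted p of 0.05, 2 higher and 5 lower, where 57% of all 16666 genes tested were past it (28.5% higher and 28.5% lower). The groups did not overlap for the same 7, where 63.3% of all genes tested had separate groups. The median log2 fold change was -0.22 over the 9 genes and -0.0045 over all genes tested. As the list was chosen on this comparison, nothing is read from these counts. Vamp1 was no longer past the threshold without control siRNA replicate 1 or 2 or without any 1 of the Circ-INSR siRNA libraries. Snap23 was past it in 3 of the 15 alternatives: without control siRNA replicate 1, with total-count scaling and with the replicate block.

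Levels of different genes were compared per length, as TPM (counts per kilobase, scaled to the same sum in every library) from the union of each gene's exons. After control siRNA the order was Vamp8 at 120.8 ± 4.33, Vamp3 at 116.6 ± 8.88, Stx4a at 88.3 ± 4.02, Vamp2 at 84.3 ± 2.60, Vamp5 at 58.1 ± 2.25, Snap23 at 35.1 ± 1.53, Vamp4 at 19.6 ± 1.16, Vamp1 at 4.22 ± 0.446 and Stx3 at 0.903 ± 0.157 TPM (SD, n = 3). Vamp8 and Vamp3 did not differ beyond their spread there, nor did Stx4a and Vamp2. After Circ-INSR siRNA Vamp3 led at 139.4 ± 1.76 TPM, followed by Stx4a at 99.6 ± 0.359, Vamp2 at 51.4 ± 1.25, Vamp5 at 40.5 ± 1.81, Vamp8 at 36.2 ± 0.338 and Snap23 at 31.3 ± 1.98 TPM. Vamp8 thus ranked 5 of 9 with Circ-INSR siRNA and 1 of 9 with control siRNA. The ranks depend on the length used: with the longest transcript of each gene Vamp8 ranked 6 after Circ-INSR siRNA and 4 after control siRNA, with Vamp3 first in both.

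The make-up of the summed mRNA of the measured Vamp genes, which leaves out Vamp7, differed accordingly. The 6 measured Vamp genes summed to 286.4 ± 1.36 TPM after Circ-INSR siRNA and 403.6 ± 6.34 TPM after control siRNA (SD, n = 3 each). Vamp8 made up 12.7%, 12.6% and 12.6% of that sum in Circ-INSR siRNA libraries, against 31.1%, 29.8% and 28.9% in control siRNA libraries. Vamp3 made up 48.7 ± 0.428% after Circ-INSR siRNA and 28.9 ± 2.01% after control siRNA. The shares of the other genes moved less: Vamp2 had 17.9 ± 0.390% after Circ-INSR siRNA and 20.9 ± 0.532% after control siRNA, and Vamp5 had 14.1 ± 0.693% after Circ-INSR siRNA and 14.4 ± 0.520% after control siRNA. The ratio of Vamp8 TPM to Vamp3 TPM was 0.260 ± 0.000895 after Circ-INSR siRNA and 1.04 ± 0.112 after control siRNA. This ratio depends on the length used. With the longest transcripts Vamp8 was at 30.6 and Vamp3 at 144.2 TPM after Circ-INSR siRNA. After control siRNA they were at 102.1 and 120.6 TPM, in the same order. The shares and ratios restate the differences above and were not tested.

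**Figure D3:**
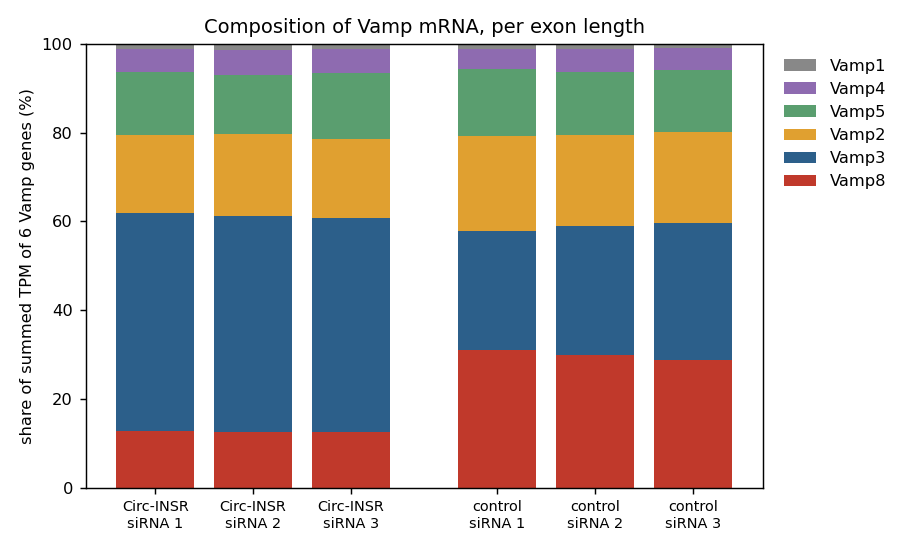
Share of each Vamp gene in the summed TPM of 6 Vamp genes, in percent, 1 bar per library, with the 3 Circ-INSR siRNA libraries on the left. The Vamp8 segment at the base takes 12.6% to 12.7% in Circ-INSR siRNA libraries and 28.9% to 31.1% in control siRNA libraries, and the Vamp3 segment above it is wider after Circ-INSR siRNA.

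Possible sources of shared reads were small for Vamp8 and larger for some others. Of all words of 31 bases in the annotated transcripts of Vamp8, 0.746% also stand in transcripts of other genes, and for Vamp2 the share was 0.00%. It was 9.03% for Vamp3, 4.77% for Snap23 and 4.39% for Stx4a. Near Vamp8 and Vamp5, within 20000 bases, lie 3 further genes, looked at for their position after the values of Vamp8 were seen. Rnf181, a ubiquitin ligase gene on the same strand beside Vamp5, fell to 79.0 ± 1.47 CPM in Circ-INSR siRNA cells, against 134.3 ± 4.25 CPM in control siRNA cells (log2 fold change -0.77, SE 0.04; edgeR adjusted p = 6.01e-08). Tmem150a, on the other strand, rose by 0.76 (SE 0.09; edgeR adjusted p = 1.28e-05). The outermost gene, 0610030E20Rik, had a log2 fold change of -0.14 (SE 0.05; edgeR adjusted p = 0.0259), a call lost with no filter on low counts, without control siRNA replicate 1 or 2, and without Circ-INSR siRNA replicate 1 or 3. The genes of this stretch therefore did not all differ in the same direction.

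Across the 6 libraries, the 5 genes whose log2 CPM profile, centred on its mean, lay nearest to that of Vamp8 included Dapk2, Ephx1, Socs3 and Fbxo32. Their distances were 0.0721, 0.0932, 0.0948 and 0.135 on the log2 scale. Their log2 fold changes lay between -1.74 and -1.69, and that of Vamp8 was -1.70. This likeness follows from the choice by distance and is no separate result. Dapk2, a calmodulin-regulated kinase, had 11.1 ± 0.0931 CPM after Circ-INSR siRNA and 36.5 ± 0.670 CPM after control siRNA. Fbxo32, the muscle ubiquitin ligase atrogin-1, had 18.6 ± 0.460 CPM after Circ-INSR siRNA and 61.7 ± 1.98 CPM after control siRNA.

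Beyond the list, 100 further genes of membrane fusion and vesicle traffic in 7 groups were examined, of which 84 could be tested. Of these 17 rose and 32 fell (edgeR quasi-likelihood test, Benjamini-Hochberg adjusted over all genes), with a median log2 fold change of -0.10 against -0.0045 over all genes tested. Among all genes tested 28.5% rose and 28.5% fell.

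In the group of other R-SNAREs 1 of 5 rose and 2 fell, with a median log2 fold change of -0.07. This group includes Sec22a and Sec22c as relatives of Sec22b, not as established SNAREs. Sec22b, which acts between endoplasmic reticulum and Golgi, rose to 76.8 ± 1.25 CPM after Circ-INSR siRNA, against 63.8 ± 4.21 CPM after control siRNA. Its relative Sec22c fell by 0.51 on the log2 scale (SE 0.06). Ykt6, a lipid-anchored SNARE with roles from the Golgi to the autophagosome, fell to 139.6 ± 0.0456 CPM, against 151.7 ± 1.19 CPM in control siRNA cells (log2 fold change -0.12, SE 0.04). Its call was lost without control siRNA replicate 2, without any 1 Circ-INSR siRNA library, and with no filter on low counts.

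Of the other Qa syntaxins 1 of 9 rose and 2 fell (median -0.11), or 1 and 4 with total-count scaling. Stx7, the late endosomal syntaxin that pairs with VAMP8 together with VTI1B and STX8, fell to 44.2 ± 0.970 CPM after Circ-INSR siRNA, against 71.5 ± 4.10 CPM after control siRNA (log2 fold change -0.69, SE 0.05; edgeR adjusted p = 4.19e-07). Vti1b had a log2 fold change of 0.14 (SE 0.05; edgeR adjusted p = 0.0322), a call lost with upper-quartile and total-count scaling, without control siRNA replicate 1 or 2, and without Circ-INSR siRNA replicate 1 or 3. Stx8 had 30.4 ± 1.26 CPM after Circ-INSR siRNA and 30.2 ± 1.34 CPM after control siRNA. Stx17, the partner of VAMP8 on autophagosomes, had 40.1 ± 0.839 CPM after Circ-INSR siRNA and 40.6 ± 1.65 CPM after control siRNA. Snap29, the third SNARE of that complex, fell to 29.5 ± 0.623 CPM, against 38.3 ± 0.313 CPM in control siRNA cells. Vti1b, Stx8, Stx17 and Snap29 are named for their pairing with VAMP8, after their values were seen. Stx2, a plasma membrane syntaxin, fell by 0.47 (SE 0.05), and Stx5a, the Golgi syntaxin, rose by 0.19 (SE 0.05).

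Of 12 other Qb, Qc and Qbc SNAREs 3 rose and 6 fell (median -0.08). The Golgi SNARE gene Bet1l fell to 23.7 ± 0.907 CPM after Circ-INSR siRNA, against 37.7 ± 0.893 CPM after control siRNA. Gosr2, of traffic into the Golgi, and Stx6, of the trans-Golgi network, fell by 0.42 (SE 0.04) and 0.40 (SE 0.05). Snap25, the neuronal form, was below the filter.

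The group of disassembly factors, SM proteins and priming factors had 12 of 21 genes down and 2 up, with a median of -0.24. It includes Stxbp4, which was higher, and Stxbp6, which was lower, by name and not as established SM proteins. Vps33a, an SM protein of HOPS that fell by 0.33 (SE 0.06), was counted here and not with the HOPS subunits below. Unc13d, or Munc13-4, a priming factor of granule secretion in blood cells, had 9.50, 9.30 and 9.53 CPM after Circ-INSR siRNA, against 24.0, 26.1 and 22.1 CPM after control siRNA. It fell by 1.35 (SE 0.07; edgeR adjusted p = 3.10e-08), with the groups well apart. Unc13c, a relative known from neurons, fell to 14.2 ± 1.21 CPM, against 29.7 ± 3.95 CPM in control siRNA cells, and Doc2g fell by 1.19 (SE 0.11). Nsf, the ATPase that takes SNARE bundles apart, had 101.5 ± 1.67 CPM after Circ-INSR siRNA and 110.0 ± 5.74 CPM after control siRNA and did not pass the test (edgeR adjusted p = 0.0565). It was past the threshold, and lower, in 6 of the 15 alternatives: upper-quartile and total-count scaling, 1 CPM in 3 libraries, without control siRNA replicate 3, the replicate block and halved counts. Nsf is named for its role, after its values were seen.

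Synaptotagmins, a family that includes calcium sensors of exocytosis, were mostly scarce: 10 of 17 passed the filter, of which 2 rose and 3 fell (median -0.12). Syt4 rose to 3.38 ± 0.464 CPM after Circ-INSR siRNA, against 1.07 ± 0.170 CPM after control siRNA (log2 fold change 1.66, SE 0.16). With the stricter filter of 1 CPM in 3 libraries 6 were tested, of which 2 rose and 0 fell. Of exocyst and HOPS subunits, which tether vesicles before fusion, 2 of 14 rose and 6 fell (median -0.11). Exoc4 fell to 131.4 ± 3.45 CPM, against 206.6 ± 17.2 CPM in control siRNA cells, and Exoc7 fell by 0.44 (SE 0.06), while Exoc6b rose by 0.35 (SE 0.06).

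Of genes of GLUT4 vesicles and their traffic 6 of 13 rose and 1 fell, with a median of 0.03. The counts were 6 up and 4 down without control siRNA replicate 3, and 5 up and 3 down with total-count scaling. Slc2a4, which encodes GLUT4 itself, had 40.5, 42.9 and 43.0 CPM after Circ-INSR siRNA, against 29.4, 28.4 and 29.8 CPM after control siRNA. It rose by 0.53 (SE 0.05; edgeR adjusted p = 2.67e-06), and all libraries of the groups were separate. Myo1c, a motor of GLUT4 vesicles, rose by 0.36 (SE 0.05) and Rab10, a small GTPase of their translocation, by 0.35 (SE 0.05). Of the SNAREs that fuse these vesicles, described above, Vamp2 was lower at 62.5% of its level in control siRNA cells, Stx4a was at 115.8% and Snap23 at 91.7%.

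**Figure D4:**
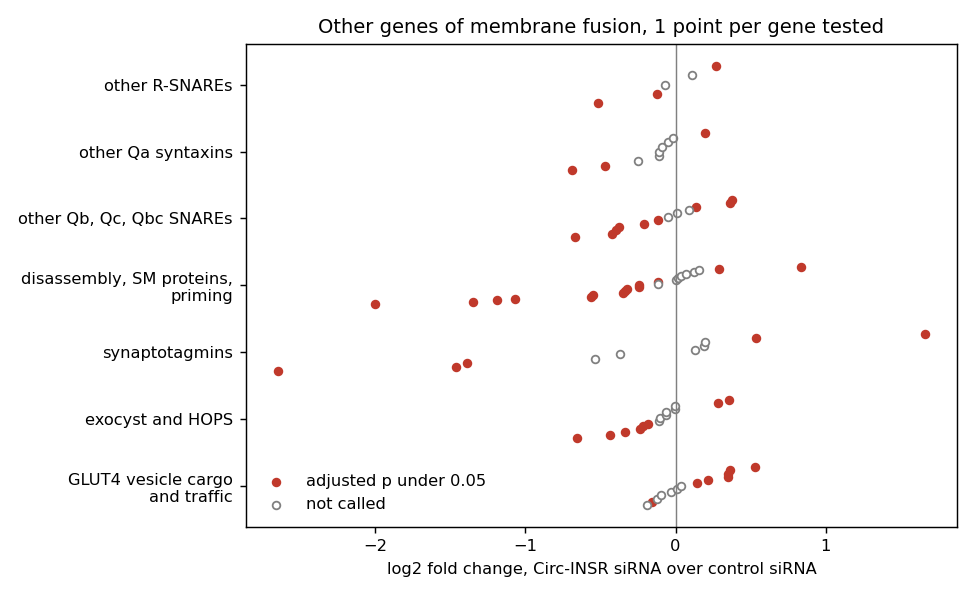
Log2 fold change, Circ-INSR siRNA over control siRNA, of 84 further genes in 7 groups, 1 point per gene, filled red where the edgeR adjusted p was under 0.05 and open where it was not. Red points of the disassembly and priming group lie mainly left of 0 (12 lower, 2 higher) and those of GLUT4 vesicles mainly right of it (6 higher, 1 lower).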

How the data were processed

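The deposited files hold raw counts per Ensembl gene, 1 file per library, not normalized. Per the submitters' processing notes, the build was mm10 and the tools included STAR 2.5.0c, featureCounts 1.6.4 and StringTie 1.3.5, without stated roles. The annotation, the strand setting and the treatment of multi-mapped reads were not given in the sources used here. Symbols and exons came from GENCODE M21, on the same build (36308 of 38087 IDs matched), and promoters from RefSeq. In every file IDs with 2 counts outnumbered those with 1, a pattern left when both mates of a pair are counted, so halved counts were among the alternatives.

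The comparison used edgeR 4.0.16 (R 4.3.3) with filterByExpr (minimum count 10, total 15; 16666 genes kept), TMM scaling, the robust quasi-likelihood F-test with group as the only term, and Benjamini-Hochberg adjustment over all genes. SE is the absolute log2 fold change over the square root of the F statistic. TPM used all IDs with exon lengths. The steps were also run on simulated counts with far fewer changed genes than were called here. That run cannot show how the calls behave at such a share. Alternatives were other scalings, filters, each library left out, a replicate block, DESeq2 1.42.0 and limma-voom (limma 3.58.1).

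The members and lists were chosen with earlier results of these data known. From each list, the up to 3 called genes with the largest change and an average log2 CPM of at least 1 are named, and the 5 genes nearest to Vamp8 in centred log2 CPM. Names outside this rule are given as such, and 1 of the 5 is not reported here.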

Additional observations from a re-analysis of the deposited data

How the results depend on the processing

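The direction of 8 of the 9 members was the same in all 15 alternatives run (3 scalings, 2 filters, 6 libraries left out in turn, replicate block, DESeq2, limma-voom and halved counts). Stx3 was the exception, with log2 fold changes from -0.24 to 0.01 when libraries were left out. Vamp8 lay between -1.75 and -1.68 in all 15, and between -1.72 and -1.68 with a library left out. Leaving out each library gave 8401 to 10214 genes called of all tested, and as genes called 2 to 3 for other R-SNAREs, 3 to 4 for Qa syntaxins, 7 to 10 for Qb, Qc and Qbc SNAREs, 13 to 15 for disassembly and priming factors, 4 to 6 for synaptotagmins, 8 to 11 for exocyst and HOPS and 6 to 10 for GLUT4 traffic. The 10214 genes were called without control siRNA replicate 3, against 9495 with all 6 libraries, and each other omission gave 9101 or fewer. Calls among Qa syntaxins numbered 5 in place of 3 with total-count scaling and with the replicate block. Those among synaptotagmins numbered 2 in place of 5 with 1 CPM in 3 libraries, where fewer genes were tested. Of all genes, 4130 were higher and 5326 lower with total-count scaling and 4466 and 4990 with upper-quartile scaling, against 4750 and 4745 with TMM. The share of Vamp8 among the Vamp genes after control siRNA was 29.9% with exon unions and 25.0% with the longest transcripts.

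Libraries with the same replicate number deviated together only weakly (r = 0.0242, 0.0739 and 0.0356 across genes), so the numbers were not taken as pairs, although each library correlated best with its own number. With the replicate block 9868 genes were called, against 9495 without it, 8 in place of 7 of the members were past the threshold (Snap23 in addition), and the log2 fold change of Vamp8 was -1.70. Total counts of 60024750 or more per library leave counting error small for most members. It was larger for Vamp1, with 684 to 821 counts, and largest for Stx3, with 77 to 105 counts. If both mates of a pair were counted, these counts stand for fewer fragments, and the counting error is larger than they imply.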
